A study of Mus musculus with 8 samples.

Results

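The genes of the phagocyte NADPH oxidase were followed in murine DCs through their H3K4me3 peaks and the NFATc2 binding sites around them. The 6 genes were taken by name: Cybb, Cyba, Ncf1, Ncf4, Rac1 and Rac2. They are 6 of the 22380 protein-coding genes of the mm9 annotation used here, and each was found in it. NFATc2 summits were assigned to a gene within 100 kb of any of its TSSs, and H3K4me3 peaks where they overlapped the gene or lay within 1 kb of a TSS.

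D1, a DC line grown long-term from C57BL/6 spleen, was the source of every library. NFATc2 was mapped in D1 cells that stably expressed NFATc2 with a C-terminal V5 tag, after 30 min with curdlan at 10 μg/ml, using an antibody against the tag. Curdlan is a β-glucan that engages the receptor dectin-1. H3K4me3 was mapped in cells left untreated (NT) and in cells given curdlan at 10 μg/ml for 2 h, either alone or together with FK506, an inhibitor of calcineurin, the phosphatase that sends NFAT to the nucleus. The labels used here give no FK506 dose for them, and do not say whether these cells carried tagged NFATc2. Each of these 4 conditions had 1 ChIP library and 1 input library, from 1 cell line, and NFATc2 was not mapped in NT or FK506-treated cells. No spread between replicates could be measured, and conditions are compared without p-values. The 95% intervals given are exact Poisson intervals for tags and exact binomial (Clopper-Pearson) intervals for ratios, and they cover counting error only.

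The phagocyte oxidase moves electrons from NADPH across a membrane to oxygen and makes superoxide, which DCs and other phagocytes use against fungi and bacteria and in the handling of antigen. Its catalytic core is a membrane heterodimer of gp91phox, encoded by Cybb, and p22phox, encoded by Cyba. The core becomes active when cytosolic subunits, among them p47phox (Ncf1) and p40phox (Ncf4), and a GTP-bound Rac protein assemble on it. Recognition of β-glucan by dectin-1 is known to trigger this assembly. H3K4me3 marks the nucleosomes around active or poised promoters, and NFATc2 is a transcription factor that enters the nucleus after calcium signals.

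The H3K4me3 lists rested on 16662316 ChIP tags in NT, 21289349 after curdlan and 19468498 when FK506 was added. The inputs held between 9309800 and 12085435 tags. MACS called each list on its own. As a check of the cell type, 8 of 8 dendritic and myeloid marker genes, among them Itgax, Clec7a and Sfpi1, had an H3K4me3 peak in each list. Of 7 markers of T cells, B cells, NK cells, epithelium, hepatocytes, fibroblasts and erythroid cells, 0 had one.

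All 6 oxidase genes carried H3K4me3 at a TSS in each of the 3 lists. A peak was present at 51.4% of protein-coding genes in NT, 51.1% with curdlan and 51% when FK506 was added. The level of a gene is given in normalised tags, which are the tags of its peaks per 1000000 ChIP tags of the library. The largest levels were those of Rac1, at 188 normalised tags in NT, 166 after curdlan and 173 when FK506 was added. Cyba, Ncf1, Ncf4 and Rac2 lay between 94.5 and 114 normalised tags in all 3 lists. Cybb was the lowest of the 6, at 31.7, 40.3 and 31.0 normalised tags. The median protein-coding gene with a peak had 47.1 normalised tags in NT, 43.5 after curdlan and 42.4 when FK506 was added, so that Cybb was below the median of marked genes in every list while the other 5 were above it, each at or beyond the 85.2 percentile.

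**Figure D1:**
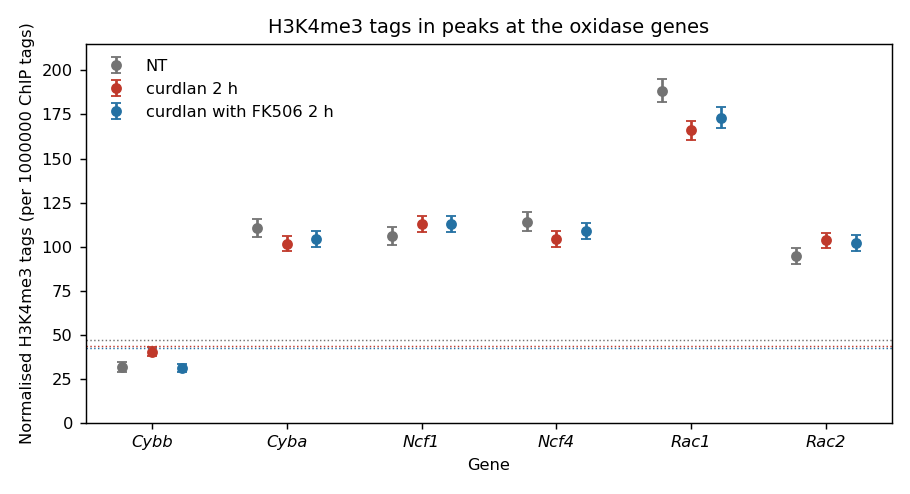
Normalised H3K4me3 tags (per 1000000 ChIP tags) in the peaks of each oxidase gene (y axis) in NT cells, after curdlan for 2 h and after curdlan with FK506 for 2 h, 1 library each. Bars are 95% exact Poisson intervals (counting error only) and dotted lines the median of protein-coding genes with a peak in that list. Cybb, at 31.0 to 40.3, lies under the dotted lines in all 3 conditions, and Rac1, at 166 to 188, lies highest.

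Cybb, the gene of the catalytic subunit, was the oxidase gene that differed most between conditions. Its peaks held 528 tags in NT, 859 after curdlan and 604 when FK506 was added. In normalised tags these were 31.7 (95% interval 29.0 to 34.5), 40.3 (37.7 to 43.1) and 31.0 (28.6 to 33.6). The curdlan interval did not overlap the other 2, and the NT and FK506 intervals overlapped each other. The ratio of curdlan to NT was 1.27 (1.14 to 1.42), that of curdlan with FK506 to curdlan was 0.769 (0.692 to 0.854), and that of curdlan with FK506 to NT was 0.979 (0.870 to 1.10). Such gaps were not particular to Cybb. At Rac1 the NT interval (182 to 195) lay apart from those of curdlan (161 to 172) and curdlan with FK506 (167 to 179). At Ncf4 the NT and curdlan intervals did not overlap either. The share of all genes with such gaps is not given here.

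Since the median gene also moved between libraries, by −0.13 on the log2 scale from NT to curdlan, −0.04 from curdlan to curdlan with FK506 and −0.18 from NT to curdlan with FK506, changes were centred on that median. A centred change of at least 1.5-fold was counted as higher or lower. The centred log2 ratio of curdlan to NT at Cybb was 0.48, which put it above 94.8% of protein-coding genes with a peak in both lists. For curdlan with FK506 over curdlan it was −0.33, with 3.82% of genes below it. Neither value passed 1.5-fold. For curdlan with FK506 over NT it was 0.15.

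The main Cybb peak spanned the TSS of the reference transcript, Cybb-001 (X:9046450, minus strand). It had 486 tags over 3050 bp in NT, 859 tags over 4090 bp with curdlan and 604 tags over 3511 bp when FK506 was added. Its downstream edge lay 2487, 3411 and 2844 bp into the gene, while its upstream edge stayed between 562 and 678 bp before the TSS. In NT only, the list held another Cybb peak of 42 tags and 1269 bp, from 5108 to 3840 bp upstream of that TSS, with an FDR of 26.8%. When only peaks within 1 kb of a TSS were used, this peak dropped out, and the centred difference between curdlan and NT became 1.51-fold, past the limit. That between curdlan with FK506 and NT became 1.20-fold.

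That NT peak lay over an NFATc2 site. Of the 2 NFATc2 summits near Cybb, the stronger, with 91 tags, was 4258 bp upstream of the reference TSS and in an intron of the longer transcript model Cybb-005. The other, with 52 tags, was in an intron 16665 bp downstream of the reference TSS and 1126 bp from the start of another Cybb transcript. Cybb was the gene nearest to both summits. The sequence around the upstream summit is shown because Cybb had the largest ratio of curdlan to NT in H3K4me3 level and this was its stronger site. It runs from 100 bp before to 100 bp after the summit on the plus strand of mm9. Capitals mark the letters searched. The NFAT core is GGAAAA, which reads TTTTCC on the opposite strand. The AP-1 site is TGACTCA, or TGAGTCA when read from the opposite strand. A PU.1-type core is GAGGAAG, whose reverse is CTTCCTC.
Cybb upstream site, chrX:9050608-9050808: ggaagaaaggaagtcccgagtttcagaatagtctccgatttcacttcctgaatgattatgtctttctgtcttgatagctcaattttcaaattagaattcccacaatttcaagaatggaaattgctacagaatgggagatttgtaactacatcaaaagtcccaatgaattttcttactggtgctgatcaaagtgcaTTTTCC
The upstream site had 1 copy of GGAAAA in this window, 95 bp from the summit at the edge of the printed run. The window held neither TGACTCA nor GAGGAAG.

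Cyba, which encodes the partner subunit p22phox, had 1 peak in every list. It held 1839 tags in NT, 2163 after curdlan and 2027 when FK506 was added. These correspond to 110, 102 and 104 normalised tags. The ratio of curdlan to NT was 0.921 (0.865 to 0.980), which became 1.01 after centring, and that of curdlan with FK506 to curdlan was 1.02 (0.964 to 1.09), or 1.06 after centring. The peak measured 4873, 5042 and 5013 bp and reached from 936 to 1293 bp upstream of the TSS (8:124956840, minus strand) to between 3719 and 3936 bp inside the gene. Without centring the curdlan list had the lowest Cyba level of the 3, and after centring NT had the lowest, with curdlan with FK506 at 1.07 times NT.

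Cyba had the weakest NFATc2 site of the 17 found around the oxidase genes, a peak of 20 tags 18270 bp upstream. Its nearest TSS was that of 9330133O14Rik, 7554 bp away. The other Cyba site, with 79 tags, lay 41437 bp upstream in an intron of Rnf166, 1311 bp from the nearest Rnf166 TSS, and under an H3K4me3 peak in all 3 lists. Cyba was not the nearest gene to either summit, and neither window held GGAAAA.

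Promoters of RefSeq (build GRCm38.p6) were matched by symbol, and Cybb, Cyba and Ncf1 were found, 3 of the 6. The first 250 bases of each, which end just before the transcript start, are shown because the H3K4me3 peaks span them and their base composition differs. They read 5′ to 3′ on the gene's strand, with the same motifs in capitals.
Cybb promoter, chrX:9469325-9469574, minus strand: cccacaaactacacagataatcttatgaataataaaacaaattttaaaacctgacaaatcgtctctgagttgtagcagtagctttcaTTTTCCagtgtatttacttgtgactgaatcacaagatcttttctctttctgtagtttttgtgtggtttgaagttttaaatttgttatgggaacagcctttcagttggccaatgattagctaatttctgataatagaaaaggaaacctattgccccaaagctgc
Cyba promoter, chr8:122432941-122433190, minus strand: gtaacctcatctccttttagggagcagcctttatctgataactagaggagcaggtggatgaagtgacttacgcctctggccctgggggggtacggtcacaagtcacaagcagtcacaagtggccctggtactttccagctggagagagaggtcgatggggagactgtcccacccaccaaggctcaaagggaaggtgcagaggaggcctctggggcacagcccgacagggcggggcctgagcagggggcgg
Ncf1 promoter, chr5:134229626-134229875, minus strand: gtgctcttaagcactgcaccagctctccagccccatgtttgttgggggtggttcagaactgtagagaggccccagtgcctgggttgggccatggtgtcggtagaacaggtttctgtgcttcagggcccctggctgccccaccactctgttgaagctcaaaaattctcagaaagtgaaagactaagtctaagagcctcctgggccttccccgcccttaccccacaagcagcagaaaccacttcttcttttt
Each of the 3 occurred once in mm9, and its start coincided with the reference TSS used here. The Cybb run is 34% G and C with 1 CpG, the Cyba run 60% with 6 CpGs and the Ncf1 run 54.4% with 2 CpGs. GGAAAA was found once, in the Cybb run, beginning 163 bp before the start. It was present in 20.4% of all 32851 promoters of the same length, TGACTCA in 4.46% and GAGGAAG in 10.6%.

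The spread in base composition extended to the other members. Within 500 bp of each reference TSS in mm9, Cybb had 4 CpGs, Ncf4 had 8, Ncf1 had 9 and Rac2 had 13, against 49 at Cyba, 100 at Rac1 and a median of 42 over protein-coding genes. The ratio of observed to expected CpG was between 0.107 and 0.155 at Cybb, Ncf1, Ncf4 and Rac2, 0.492 at Cyba and 0.861 at Rac1. Genes with few CpGs differed in their H3K4me3 level, since Ncf1, Ncf4 and Rac2 had 94.5 to 114 normalised tags and Cybb had 31.7, 40.3 and 31.0.

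Ncf1 encodes p47phox, the organizer subunit that is phosphorylated on activation and carries the cytosolic complex to the membrane. Its peak held 1766 tags in NT, 2405 after curdlan and 2194 when FK506 was added, or 106, 113 and 113 normalised tags. The ratio of curdlan to NT was 1.07 (1.00 to 1.13) and the centred log2 ratio 0.23. The ratio of curdlan with FK506 to curdlan was 0.998 (0.941 to 1.06), and the ratio to NT was 1.06. The level with FK506 was therefore at that of curdlan within counting error. The peak measured 4399, 4888 and 5070 bp, and the difference lay mainly at the downstream edge, which was 3394, 3870 and 3948 bp inside the gene.

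The strongest NFATc2 site of the family lay 3116 bp upstream of the Ncf1 TSS (5:134705495, minus strand), between genes, with Ncf1 as its nearest gene. It held 285 tags and ranked 203rd of the 9438 peaks in the NFATc2 list, above 97.8% of them. The other Ncf1 site, of 96 tags, lay 60159 bp downstream, 93 bp from a TSS of Wbscr16. The sequence of the upstream site is shown because it is the strongest in the family and held none of the letters searched.
Ncf1 upstream site, chr5:134708511-134708711: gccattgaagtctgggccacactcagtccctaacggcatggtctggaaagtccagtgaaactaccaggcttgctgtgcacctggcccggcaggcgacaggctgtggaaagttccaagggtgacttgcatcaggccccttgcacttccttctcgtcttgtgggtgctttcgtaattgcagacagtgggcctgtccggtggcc
No capitals appear in it. The nearest GGAAAA within the peak was 564 bp from the summit. As at Cybb, this site lay under an H3K4me3 peak of NT only, with 224 tags over 3055 bp and an FDR of 16.9%, which did not reach the gene by the rule used here. An H3K4me3 peak in NT and in neither of the other lists lay over 2 of the 17 sites, against 2.01% of all NFATc2 peaks. Both of these NT peaks had a high FDR, and the NT list held 1181 peaks with an FDR over 5%, compared with 638 with curdlan and 741 with curdlan and FK506. The part of the calling in these differences was not tested.

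Ncf4 encodes p40phox, which binds phosphatidylinositol 3-phosphate and sustains oxidase activity at phagosomes. Its peak held 1902 tags in NT, 2221 after curdlan and 2118 when FK506 was added. The levels of 114, 104 and 109 normalised tags gave a ratio of curdlan to NT of 0.914 (0.859 to 0.972), or 1.00 after centring. Curdlan with FK506 over curdlan gave 1.04 (0.982 to 1.11), or 1.08 after centring. The peak was 5115, 6001 and 5316 bp long, and its downstream edge lay 3917, 4556 and 3922 bp inside the gene (TSS 15:78075231, plus strand). An NFATc2 site of 158 tags lay in an intron of Ncf4, 13586 bp downstream of the reference TSS and 2491 bp from the start of another Ncf4 transcript. Despite its tags, this site was a marginal call, with a MACS p-value of 3.7e-06 near the limit of 1e-05 and an FDR of 2.46%. It had 1 copy of GAGGAAG 78 bp from the summit and no GGAAAA in its peak. The more distant Ncf4 site, of 37 tags, was 59011 bp upstream and nearest to Ift27, and it held both GGAAAA and TGACTCA, 18 and 24 bp from the summit.

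Rac1 and Rac2 encode the small GTPases that switch the assembled oxidase on, Rac1 in most cell types and Rac2 mainly in blood cells. Rac1 had 2 peaks in every list around its TSS (5:144288904, minus strand). They lay on either side of it in NT and with curdlan, and with FK506 the downstream peak began 32 bp before it. In NT, curdlan and curdlan with FK506 the downstream peak held 2556, 2859 and 2687 tags and the upstream peak 584, 675 and 683 tags. The summed level had a ratio of curdlan to NT of 0.881 (0.839 to 0.925) and of curdlan with FK506 to curdlan of 1.04 (0.994 to 1.09), which were 0.966 and 1.08 after centring. The upstream peak with FK506 was 3651 bp long, against 1592 bp in NT and 1487 bp with curdlan, while its tags differed little, and this made Rac1 the longest of the family in that list at 8344 bp.

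Rac2 had 1 peak. It held 1575 tags in NT, 2204 after curdlan and 1985 when FK506 was added. The levels were 94.5, 104 and 102 normalised tags, a ratio of curdlan to NT of 1.10 (1.03 to 1.17) and a centred log2 ratio of 0.26. The ratio of curdlan with FK506 to curdlan was 0.985 (0.926 to 1.05). Rac2 showed the largest difference in length of the family between NT and curdlan, from 3371 to 5966 bp, a ratio of 1.77 that exceeded 98.4% of genes. With curdlan and FK506 it was 5063 bp. Both edges lay further out with curdlan, at 1568 bp upstream and 4397 bp downstream of the TSS (15:78403213, minus strand), than in NT, at 761 and 2609 bp.

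Rac2 was also the oxidase gene with the most NFATc2 sites, 6 within 100 kb, a number that 3.86% of protein-coding genes reached or exceeded. The median gene had 1. The sites nearest each other formed a group of 3 between 15133 and 19222 bp upstream, with 51, 159 and 206 tags, and lay in the interval between Rac2 and Cyth4, whose TSS was nearer to each of them (5042 to 9131 bp). Only the site 6871 bp upstream, of 29 tags, had Rac2 as its nearest gene, and this site lay under an H3K4me3 peak in all 3 lists. A site of 34 tags lay 14413 bp downstream, nearest to Gm6723, and a site of 99 tags lay 34893 bp upstream in an intron of Cyth4. The strongest of the group is shown because it holds an AP-1 site and the NFAT core close to the summit.
Rac2 upstream site, chr15:78422335-78422535: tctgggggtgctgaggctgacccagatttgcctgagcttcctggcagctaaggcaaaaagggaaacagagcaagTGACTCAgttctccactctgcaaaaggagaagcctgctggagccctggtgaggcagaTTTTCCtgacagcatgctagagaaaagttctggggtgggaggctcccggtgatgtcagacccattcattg
TGACTCA lay 20 bp and GGAAAA 31 bp from its summit, on opposite sides of it. The peak had 206 tags, more than 94.2% of the list, and a fold enrichment of 46.5 over the input, the highest of the 17 sites.

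Rac1 had 3 sites within 100 kb, all downstream of the gene, with Daglb as the nearest gene of each. They held 173, 124 and 89 tags at 28157, 40683 and 86035 bp from the reference TSS. The first lay 17729 bp from another Rac1 TSS and in an intron of Daglb. None of the 3 held GGAAAA within 100 bp of the summit.

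Across the family, 0 of 6 genes were at least 1.5-fold higher with curdlan than in NT after centring, where 3.71% of protein-coding genes were, and 0 of 6 were lower, where 1.8% were. For curdlan with FK506 over curdlan, 0 were higher and 0 lower, against 0.568% and 1.35% of genes. For curdlan with FK506 over NT, 0 were higher and 0 lower, against 2.98% and 1.75%. The median centred log2 ratio of the 6 genes was 0.12, 0.06 and 0.13 in these comparisons. Without centring the medians were −0.01, 0.02 and −0.05, so the sign of the family's median in both comparisons with NT depended on the scaling. The comparisons share libraries and are not independent of each other. With 6 genes and a background of a few percent, 0 calls is not a result about the family.

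Per kb of peak and before centring, the main Cybb peak held 9.56 normalised tags in NT and 9.87 with curdlan. Before centring, its higher level thus went with a longer peak. A centred ratio per kb for this peak alone is not given here. With the upstream NT peak included, the centred ratio per kb of curdlan to NT was 1.52. At Rac2 the values per kb before centring were 28.04 and 17.35, as the length differed more than the level. Summed over the peaks of a gene, length was greater with curdlan than in NT at 4 of 6 genes, against 62.8% of all genes. Cybb counted as shorter here, at 4319 bp in NT and 4090 bp with curdlan. Its NT sum includes the weak upstream peak, while its main peak was longer with curdlan. Summed length was greater with FK506 than with curdlan alone at 2 of 6, against 39.4%. Between curdlan with FK506 and NT this was 5 of 6, against 54.9%. In each comparison the list with more ChIP tags was the one with longer peaks at most genes. The part of depth in these lengths was not tested.

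**Figure D2:**
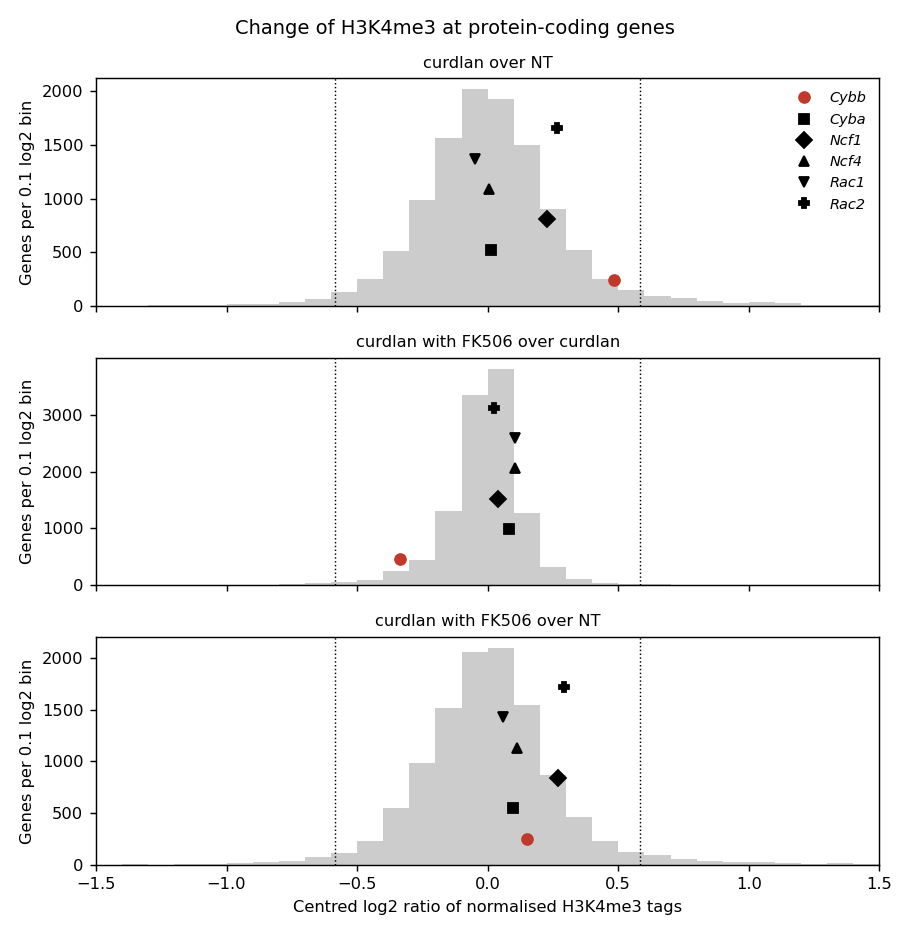
Centred log2 ratio of normalised H3K4me3 tags (x axis) for protein-coding genes with a peak in both lists, as counts of genes per bin of 0.1, in the 3 comparisons between conditions. Markers give the 6 oxidase genes at arbitrary height, Cybb in red, and dotted lines a 1.5-fold difference. Cybb lies at 0.48 for curdlan over NT and at −0.33 for curdlan with FK506 over curdlan, while the other 5 genes lie between 0.02 and 0.10 in the latter.

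The fold enrichment that the lists give for each peak showed another order. For Cybb it was 33.1 in NT, 81.1 with curdlan and 55.5 when FK506 was added, and for Rac2 it was 79.7, 53.4 and 77.2. The median fold enrichment of genes was 1.66 times higher with curdlan than in NT, and the inputs differed in depth, at 12085435 tags in NT and 9309800 with curdlan. Relative to that median, Rac2 was 0.403 times, Cyba 0.540 times and Rac1 0.599 times as high with curdlan as in NT, whereas Cybb was 1.47 times as high. The direction for Cybb was the same by tags and by fold enrichment. For Rac2 it was not. Ncf1 was 1.17 times as high by centred tags and 0.934 times by centred fold enrichment. Before centring both were higher with curdlan, with fold enrichments of 49.3 in NT and 76.5 with curdlan. Cyba had no direction by centred tags beyond counting error, at 1.01 (0.948 to 1.08). Before centring its tags (0.921) and its fold enrichment (88.3 in NT, 79.3 with curdlan) were both lower with curdlan.

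An NFATc2 summit lay within 100 kb of all 6 oxidase genes, as it did for 55.3% of protein-coding genes, and within 20 kb of all 6, against 24.1%. Within 10 kb there were 4 genes (Cybb, Ncf1, Ncf4 and Rac2), against 16.3%, and within 1 kb there were 0, against 5.29%. These shares include genes without an H3K4me3 peak, whereas all 6 oxidase genes had one. The share over genes with a peak is not given here. Such closeness was not particular to the oxidase genes. A summit lay within 10 kb of 5 of the 8 dendritic and myeloid markers and of 12 of the 14 oxidase regulators described below. The 17 summits comprised 2 each for Cybb, Cyba, Ncf1 and Ncf4, 3 for Rac1 and 6 for Rac2. Ncf4 and Rac2 both lie on chromosome 15, and Ncf1 and Rac1 on chromosome 5, but no summit was counted for more than 1 of the genes. By position 9 were intronic, 8 intergenic and 0 exonic, and 10 were upstream of the reference TSS. Their tags ran from 20 to 285 with a median of 91, and 11 had more than the median of 63 tags of the whole list. An oxidase gene was the nearest gene to 5 of them. An H3K4me3 peak of any list lay over 5, against 28.4% of NFATc2 peaks.

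**Figure D3:**
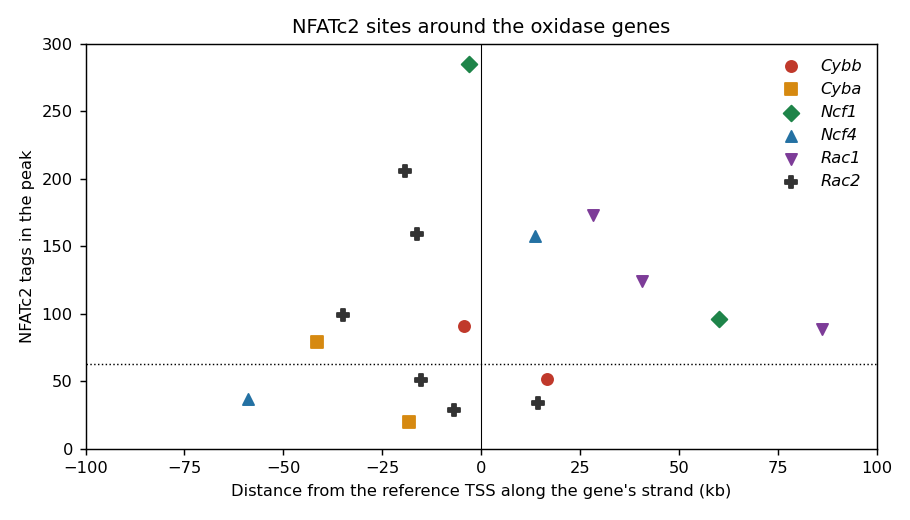
Tags of the 17 NFATc2 peaks within 100 kb of the oxidase genes (y axis) against the distance of their summits from the reference TSS along the gene's strand (x axis, kb). The dotted line is the median of 63 tags over the list, and the strongest site, of 285 tags, is the Ncf1 site 3116 bp upstream.

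GGAAAA was found within 100 bp of 5 of the 17 summits, 29.4%. Over all 9438 summits it was found at 45.6%, and in windows of the same size 1000 bp to either side at 18.0%. Among the 5 were the upstream Cybb site, 2 Rac2 sites and the distant Ncf4 site. TGACTCA was present at 4 of 17, 23.5%, against 16.9% of all summits, and GAGGAAG at 7 of 17, 41.2%, against 20.3%. At 5 of the 17 none of the 3 was present, among them the strongest sites of Ncf1 and Rac1. With 17 sites around 6 genes these shares are descriptions, and a match is not a binding event.

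For each oxidase gene, the protein-coding gene with the most similar levels over the 3 lists was sought by Euclidean distance of log2 normalised tags. These were Slc12a4 for Cybb (32.9, 39.5 and 30.7 normalised tags), Rps18 for Cyba, Tubb6 for Ncf1, Crkl for Ncf4, Mvd for Rac1 and Ece2 for Rac2. The likeness rests on 3 values among 11198 genes.

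The regulators of the oxidase were followed in the same way. All 14 had an H3K4me3 peak in each list, against 51.4% of protein-coding genes in NT, and 1 of 14 was at least 1.5-fold higher with curdlan than in NT, against 3.71%, so the count is near the background. This was Vav1, a guanine nucleotide exchange factor that loads Rac with GTP, with 94.0 normalised tags in NT, 172 after curdlan and 112 when FK506 was added. Its centred ratio of curdlan to NT was 2.00, and that of curdlan with FK506 to curdlan was 0.672. Its peaks measured 4338, 9317 and 5921 bp. As at Cybb the level was highest with curdlan. After centring, the level with FK506 was 1.35 times that of NT at Vav1. At Cybb it was 1.11 times that of NT after centring and 0.979 times without. With only peaks within 1 kb of a TSS, which leaves out the weak upstream NT peak, it was 1.20 times after centring. Of the 14 regulators, Prdx6, a peroxiredoxin that binds the oxidase complex, came next for curdlan over NT, at 1.18-fold. The smallest ratios were those of Arhgdib, a GDP-dissociation inhibitor that holds Rac in the cytosol, at 0.740, and BC017643 (Cybc1), needed for the maturation of the membrane heterodimer, at 0.851. The median of the 14 was −0.01. NFATc2 summits lay within 1 kb of a TSS at 5 of the 14, namely Vav3, Dock2, Prkcd, Prdx6 and BC017643, within 10 kb at 12 and within 100 kb at 14. The shares of all protein-coding genes in these windows were 5.29%, 16.3% and 55.3%, and the oxidase genes had 0, 4 and 6 of 6.

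Among the other NOX family genes, 3 of 10 had a peak in the lists, and 0 passed 1.5-fold between curdlan and NT. Rac3, the remaining Rac paralogue, had 99, 122 and 53 tags, and its centred ratios were 1.06 for curdlan over NT and 0.490 for curdlan with FK506 over curdlan. Nox1, a homologue of the catalytic subunit, had 1.18, and Noxo1, its organizer, had 0.897 for curdlan over NT. Nox3, Nox4, Noxa1, Duox1, Duox2, Duoxa1 and Duoxa2 had no peak in any list.

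Of 19 genes that remove or produce reactive oxygen and nitrogen, 16 had peaks in all lists and 0 passed 1.5-fold between curdlan and NT, with a median centred log2 ratio of 0.07. Nfe2l2, a master regulator of antioxidant genes, was highest at 1.42-fold and reached 1.54-fold with curdlan and FK506 over NT. Prdx2, a peroxiredoxin, followed at 1.30-fold. The lowest were Gpx1, a glutathione peroxidase, at 0.782 and Keap1, the inhibitor of the Nfe2l2 protein, at 0.831. Nos2, the inducible nitric oxide synthase, had no H3K4me3 peak in any list, with an NFATc2 summit 908 bp upstream of a TSS. Cybb thus had a larger ratio of curdlan to NT than 15 of these 16 genes and 13 of the 14 regulators, and a lower one than Vav1 and Nfe2l2.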

How the data were processed

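Mapping to mm9 was done by the authors with Bowtie. Peaks were called by them in each library separately, against its matching input, with MACS and a p-value limit of 1e-05 (the headers name version 1.4.2). The deposited lists give a raw count of tags per peak, the start, end and summit, a fold enrichment (ratio to the local background), a score (the −log10 p-value multiplied by 10) and an FDR in percent estimated by the authors' caller.

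From these, the tags of the peaks at each gene were summed and divided by the header total of ChIP tags (14377535 for NFATc2). Log2 ratios were centred on the median over protein-coding genes with a peak in both lists. Genes and TSSs came from the Ensembl release 65 annotation of mm9. Motifs were counted on both strands within 100 bp of a summit. The sequence of 1 site is not reported here. The steps were tested on simulated peaks. Python 3.11.15, numpy 2.4.6, pandas 2.3.3 and scipy 1.17.1 were used.

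The 6 genes and the further lists were chosen with earlier results of these data known. From each further list the genes with the 2 largest and 2 smallest ratios of curdlan to NT were named, with all genes that had a summit within 1 kb. The remarks on Rac3 and on genes without a peak were added after their values were seen. No p-value was computed.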

Additional observations from a re-analysis of the deposited data

How the results depend on the processing

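The count of oxidase genes at least 1.5-fold higher with curdlan than in NT rose from 0 to 1 (Cybb in each) with tags per kb, with only peaks within 1 kb of a TSS and with only peaks of an FDR of 5% or less. With fold enrichment in place of tags, 3 were at least 1.5-fold lower with curdlan than in NT, 1 (Rac2) was higher with FK506 than without and 1 (Cyba) was lower with curdlan and FK506 than in NT. The share of all protein-coding genes past 1.5-fold in these settings is not given here, so these counts have no background beside them. The cause was not tested. Cybb was higher with curdlan than in NT in 9 of 9 settings, from 1.27 to 1.52-fold, and lower with FK506 than with curdlan alone in 9 of 9, from 0.769 to 0.906. For curdlan with FK506 over NT, Cybb ranged from 0.979 to 1.38 and was higher in 8 of 9 settings. All settings reuse the same libraries, so their number does not measure how repeatable a difference is. The number of NFATc2 summits was 17 within 100 kb, 11 within 30 kb, 11 within 20 kb, 5 within 10 kb and 0 within 1 kb. It was 9 at a p-value of 1e-10 or less and 5 when only the nearest gene was used, and it stayed at 17 with an FDR of 5% or less or with the TSSs of protein-coding transcripts. GGAAAA was found at 3 of 17 within 50 bp and at 6 within 250 bp. Among all alternatives for counts, with those named here included, 47 stayed within 1.5 times the value reported and 13 did not. Most of the 47 were counts of genes past 1.5-fold that were 0 and stayed 0. With 6 genes this was likely beforehand, so the tally does not measure how robust the results are. No paired analysis was possible because each condition had 1 library. The NT peak of 42 tags upstream of Cybb, with an FDR of 26.8%, decides whether Cybb passes 1.5-fold when only peaks at a TSS or of low FDR are kept. It also enters the setting with tags per kb, through its length. Cybb had 7.34 normalised tags per kb in NT over both peaks and 9.56 in the main peak. With curdlan it had 9.87. These values per kb are before centring.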
